A study of Homo sapiens with 11 samples.

Results

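Serum response factor (SRF), its coactivators MRTFA and MRTFB and 6 genes known as their targets or partners in contractility (TAGLN, CNN1, CNN2, CALD1, THBS1 and FLNA) were followed in MDA-MB-231 cells after silencing of MASTL, which encodes the Greatwall kinase. Members were all probes whose gene symbol in the array annotation, updated through the Entrez number, was 1 of these 9 symbols. MRTFA and MRTFB are also known as MKL1 and MKL2. Of the 9 genes, 8 had a probe, against 20046 named genes with a probe on the array, and they had 13 of its 47321 probes. FLNA, which encodes the actin crosslinker filamin A, had no probe listed under its symbol and has no value below. A probe was tested when it exceeded the noise limit of 7.409 (log2 scale) on at least 2 of the 11 arrays, which 11 member probes of 7 genes did, each of them on all 11 arrays.

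MDA-MB-231 is an epithelial line from a triple-negative breast adenocarcinoma, and its RNA was measured on 11 one-colour Illumina bead arrays. Cells had been transfected by lipid reagent with a commercial non-targeting siRNA (control) or with a single siRNA to MASTL, and were harvested 24 h or 48 h later. The control groups held replicates 1, 2 and 3 at 24 h and 1, 3 and 4 at 48 h, and the MASTL siRNA groups held replicates 1 and 3 at 24 h and 1, 3 and 4 at 48 h. As only 1 siRNA was used, effects of MASTL loss and other effects of that siRNA cannot be told apart. The siRNA is given because every comparison rests on it, with the 21 bases as the labels give them and the strand not stated.

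MASTL siRNA: acgccttattctagcaaatta

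SRF is a transcription factor that binds a short DNA element, the CArG box, in the control regions of cytoskeletal and immediate early genes. Its coactivators MRTFA and MRTFB are held back by monomeric actin and enter the nucleus when actin polymerises, whereas the ELK proteins couple SRF to mitogenic signalling. The SRF gene itself and many genes of the contractile apparatus are known targets.

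The promoters of member genes that held a CArG box are shown first, since the box is the element that SRF is known to bind. The search used the RefSeq table of promoter windows (build GRCh38.p14, 250 bases before to 50 after each annotated start). A CArG box was taken as CC, then 6 bases that are each A or T, then GG, a pattern that its reverse complement also matches, so that both strands were searched at once. Of the 9 genes, 8 had a window in that table, and the windows of 3 of them, SRF, CNN2 and FLNA, held a box. Of all 35116 windows 1.29% held one, and of the 27305 genes with a window 1.6% did. SRF held 2 boxes, from -30 to -21 and from -10 to -1 relative to its annotated start, and 2 or more were found in 0.0313% of all windows. The box of CNN2 lay from -89 to -80 and that of FLNA from -94 to -85. Windows of MRTFA, MRTFB, CNN1, CALD1 and THBS1 did not contain these letters, and TAGLN had no window. A match describes the sequence and is not evidence of binding in these cells. The 250 bases before the start follow, read 5′ to 3′ on the gene's strand, with the CArG boxes in capitals.

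SRF promoter, chr6:43171019-43171268 (+ strand): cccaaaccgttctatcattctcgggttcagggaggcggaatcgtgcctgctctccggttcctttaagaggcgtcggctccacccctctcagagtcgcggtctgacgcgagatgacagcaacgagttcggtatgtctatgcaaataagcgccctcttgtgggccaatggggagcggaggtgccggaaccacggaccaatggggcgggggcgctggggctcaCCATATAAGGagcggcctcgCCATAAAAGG

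CNN2 promoter, chr19:1026358-1026607 (+ strand): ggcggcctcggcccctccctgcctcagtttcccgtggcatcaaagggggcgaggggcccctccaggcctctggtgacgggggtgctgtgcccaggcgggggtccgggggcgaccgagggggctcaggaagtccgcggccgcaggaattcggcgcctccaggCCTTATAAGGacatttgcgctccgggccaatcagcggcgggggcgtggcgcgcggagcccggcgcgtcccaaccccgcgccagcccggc

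FLNA promoter, chrX:154374635-154374884 (- strand): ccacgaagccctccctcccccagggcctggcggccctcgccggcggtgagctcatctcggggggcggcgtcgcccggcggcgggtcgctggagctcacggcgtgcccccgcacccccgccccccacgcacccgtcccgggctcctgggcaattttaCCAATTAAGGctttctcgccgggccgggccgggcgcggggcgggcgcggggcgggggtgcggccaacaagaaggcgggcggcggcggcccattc

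The silenced gene was checked first. On the brighter of its 2 probes MASTL read 8.71 ± 0.054 (mean ± SD, n = 3) in 24 h controls against 7.65 ± 0.053 (n = 2) under MASTL siRNA, a log2 change of -1.05 (limma adjusted p = 0.00153). At 48 h it read 8.52 ± 0.18 against 7.58 ± 0.077 (n = 3 each), a change of -0.93 (adjusted p = 0.0012). The dimmer MASTL probe changed by -0.62 at 24 h and -0.58 at 48 h (limma adjusted p = 0.0141 and 0.0072). Under MASTL siRNA that probe read 7.47 and 7.45, near the noise limit, where the deposited values understate folds. Within a group, arrays correlated across the tested probes at 0.99 to 0.9967. All 5 mesenchymal or basal markers (VIM, CD44, AXL, EGFR and CAV1) were above the noise limit on every array, as were 5 of 8 luminal markers (KRT18, KRT19, EPCAM, ERBB2 and GATA3), while the luminal markers CDH1 and PGR were above it on none and ESR1 was on 1. Of 8 markers of differentiated smooth muscle or fibroblasts, 2 were above the limit on all arrays (ACTA2 and SMTN) and 2 on none (MYH11 and LMOD1). The leukocyte and endothelial markers PTPRC, CD3E and CDH5 were above it on none, and 2 of that list, CD68 and PECAM1, were above it on all. The lysosomal protein gene CD68 fell at 48 h from 11.23 ± 0.38 to 10.39 ± 0.18 (adjusted p = 0.0427), a call kept only without 48 h control replicate 4 when single arrays were left out (adjusted p otherwise 0.0566 to 0.158). Its other 2 probes were also lower at 48 h (log2 changes -0.41 and -0.28, adjusted p = 0.00827 and 0.0248). In the paired fit described below CD68 had an adjusted p of 0.00428 at 48 h, and the endothelial marker PECAM1 was lower too (log2 change -0.24, adjusted p = 0.00644, against 0.243 without pairing). The part of these markers in the results below was not tested. Replicates are numbered in the labels but not described as separate cultures. The p-values therefore cover the spread between arrays, which may be technical, and the number of arrays limits the precision. In bulk RNA, fewer cells of a type and less RNA per cell cannot be told apart. Levels of different probes are not compared with each other.

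Most member probes read higher under MASTL siRNA, and none passed the test at either time. At 48 h the groups were apart for SRF, MRTFA and CNN2, with MASTL siRNA higher, and overlapped for the other tested member genes. Of all tested probes, 10.1% were apart with every MASTL siRNA array higher and 8.67% with every one lower. The MRTFA difference was 0.051, on a probe just above the noise limit. Limma called 0 of 11 member probes at 24 h, where it called 0.905% of all 27303 tested probes, and 0 of 11 at 48 h, where it called 2.34% (Benjamini-Hochberg adjusted p under 0.05 over all tested probes). At an unadjusted p under 0.05 there were 0 member probes at 24 h, against 9.1% of all probes, and 3 at 48 h, against 14%. The 3 were the SRF probe and both CNN2 probes. The log2 change was above 0 for 10 of 11 member probes at 24 h and for 9 of 11 at 48 h, where 52% and 51.2% of all probes lay above 0. Taking for each gene its probe of highest mean, the median change over the 7 tested genes was 0.15 at 24 h and 0.24 at 48 h, and over all tested probes it was 0.0023 and 0.0013. The 24 h median depends in part on control replicate 2, which has no MASTL siRNA array of its number. Over same-numbered 24 h arrays only, the changes of these probes were 0.47 (SRF), 0.40 (THBS1), 0.18 (CALD1), 0.079 (CNN2), 0.021 (MRTFA), 0.0082 (TAGLN) and -0.0031 (MRTFB). Probes of 1 gene, and genes of 1 pathway, are not independent of each other. The members were also chosen with earlier results of these data known, so these counts describe the set and do not test it.

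Same-numbered control and MASTL siRNA arrays at 48 h shared part of their deviations, with correlations of 0.535 to 0.768 across probes. No label states this pairing, which was inferred from the same values that are then tested. Arrays of different numbers were not correlated in this way. Deviations within a group sum to 0, so these correlations are not independent of each other. On the assumption that the numbers pair the arrays, a second fit compared each MASTL siRNA array with the control array of the same number. It covered both times at once, so its 48 h standard errors also draw on the 24 h arrays, whose pairing is not shown. In this fit 5 of 11 member probes passed at 48 h, all of them higher, where 11.6% of all probes passed and 5.94% passed as higher. They belonged to SRF, TAGLN, CNN2, CALD1 and THBS1. This rests on every 48 h pair. Leaving out replicate 1 left 1 member probe (THBS1), leaving out replicate 3 left 1 (CNN2) and leaving out replicate 4 left 0, with fewer arrays in each fit. At 24 h 1 member probe (SRF) passed in that fit, where 2.84% of all probes passed, but 2 pairs are too few to show that the numbers pair the 24 h arrays.

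SRF was measured by probe ILMN_1803398, and the gene lies at chr6:43171269-43181506 (GRCh38.p14). At 48 h the 3 controls read 11.45, 11.35 and 11.28 on the log2 scale for replicates 1, 3 and 4, and the 3 MASTL siRNA arrays read 11.77, 11.75 and 11.64. Every MASTL siRNA array was above every control array. The means were 11.36 ± 0.086 and 11.72 ± 0.065 (SD, n = 3 each), a log2 change of 0.36 (SE 0.15, 95% confidence interval 0.021 to 0.7), or 1.28-fold. The adjusted p was 0.322 (limma), and within pairs it was 0.0151 with SE 0.057. The pair differences were 0.318, 0.398 and 0.369. Without replicate 1, 3 or 4 the paired adjusted p was 0.0662, 0.0875 or 0.0762, and in a fit of the 48 h groups alone, which called 1.53% of all probes, the unpaired adjusted p was 0.0491.

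At 24 h the SRF controls spread widely, reading 11.28, 12.01 and 11.60 for replicates 1, 2 and 3, and the MASTL siRNA arrays read 11.90 and 11.91 for replicates 1 and 3. The groups overlapped, because control replicate 2 was the highest of the 5 arrays. The change was 0.28 (SE 0.17, limma adjusted p = 0.73). Within pairs it was 0.47 (SE 0.07, adjusted p = 0.0331), a fit in which control replicate 2 has no partner and carries no weight, and the adjusted p was 0.0945 without pair 1 and 0.071 to 0.0817 without any 1 of the 48 h pairs. Single controls moved the unpaired change, to 0.10 without control replicate 1 and to 0.47 without control replicate 2. Across the 4 groups the SRF level was in the order MASTL siRNA at 24 h (11.91), MASTL siRNA at 48 h (11.72), control at 24 h (11.63) and control at 48 h (11.36). From 24 h to 48 h it differed by -0.19 under MASTL siRNA (adjusted p = 0.774) and by -0.27 under control siRNA (0.608), so neither step in time passed.

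**Figure D1:**
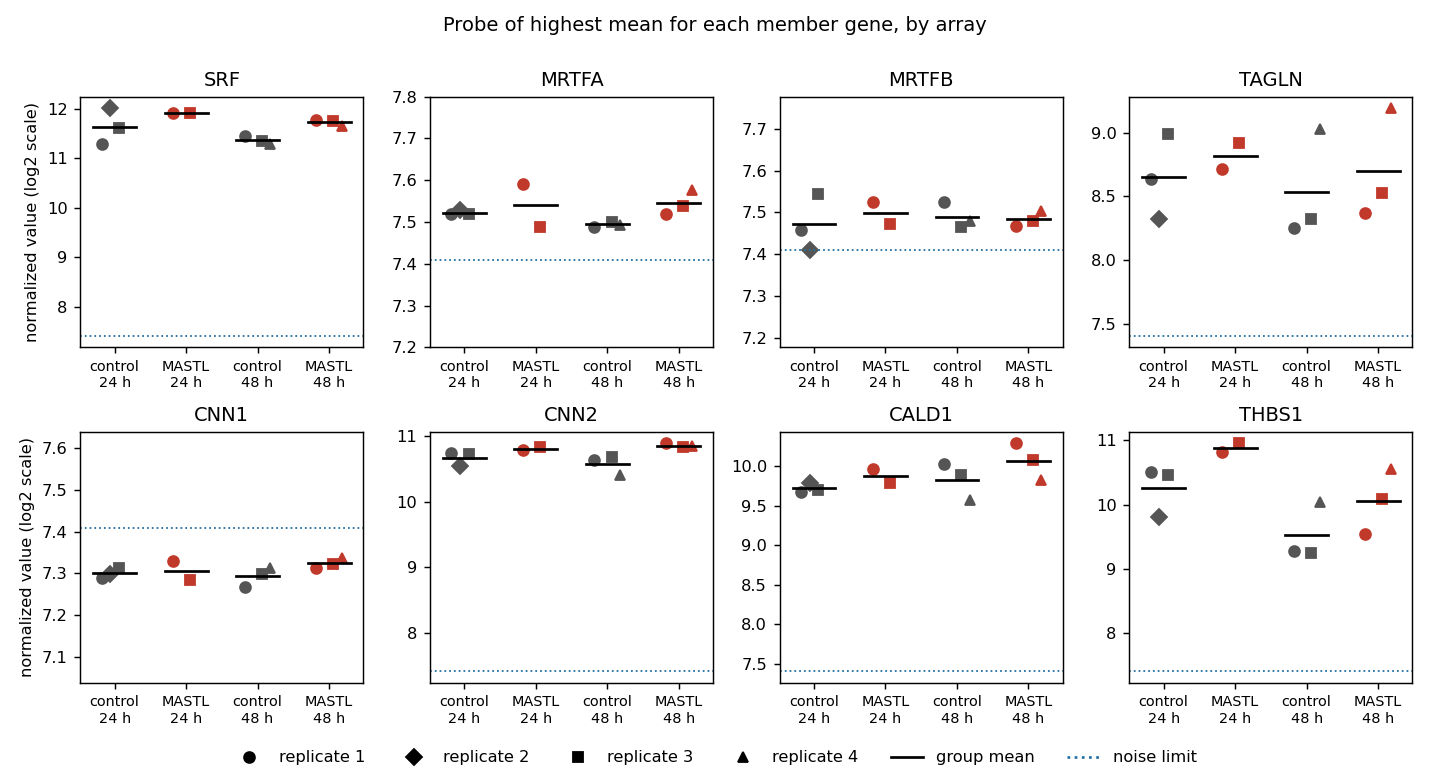
Normalized log2 value of the brightest probe of each member gene on every array (vertical axis, a range of its own in each panel) by group (horizontal axis), with control arrays in grey, MASTL siRNA arrays in red, marker shapes for replicate numbers, a line at each group mean and a dotted line at the noise limit of 7.409. The 48 h groups do not overlap for SRF, MRTFA and CNN2, CNN1 lies below the limit throughout, and for TAGLN, CALD1 and THBS1 the replicates of a 48 h group lie farther apart than the 48 h group means.

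Both MRTF coactivators read just above the noise limit. The MRTFA probe (ILMN_1651767, gene at chr22:40410289-40636719) had group means of 7.52 in 24 h controls, 7.54 under MASTL siRNA at 24 h, 7.49 in 48 h controls and 7.54 under MASTL siRNA at 48 h. At 48 h the MASTL siRNA arrays, at 7.52, 7.54 and 7.58, all lay above the controls at 7.49, 7.50 and 7.49, by a mean of 0.051 (SE 0.027, limma adjusted p = 0.482). The MRTFB probe (ILMN_1690807, gene at chr16:13994774-14266779) had means between 7.47 and 7.50, with overlapping groups at both times. Its changes were 0.027 at 24 h and -0.0065 at 48 h (adjusted p = 0.921 and 0.968). So near the limit the log2 scale is compressed and understates a fold, and the RNA level says nothing of where these proteins are in the cell, which is how they are known to be regulated.

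TAGLN encodes transgelin (SM22), an actin-binding protein of smooth muscle, and lies at chr11:117199294-117207465. Its brightest probe (ILMN_1778668) read 8.25, 8.32 and 9.03 in 48 h controls and 8.37, 8.53 and 9.19 under MASTL siRNA for replicates 1, 3 and 4. Replicate 4 was high in both groups, and the groups overlapped. The change of 0.16 had an SE of 0.28 between groups (limma adjusted p = 0.885) and of 0.035 within pairs (0.0399), with pair differences of 0.117, 0.207 and 0.162. Within pairs the adjusted p was 0.1, 0.191 or 0.149 without replicate 1, 3 or 4. At 24 h the controls read 8.64, 8.32 and 8.99 and the MASTL siRNA arrays 8.72 and 8.92, and the groups overlapped again (change 0.17, adjusted p = 0.942). Within pairs, which leave out control replicate 2, this 24 h change was 0.0082. The other tested TAGLN probe (ILMN_2400935) differed by 0.057 and 0.084, and the last was above the noise limit on 1 array and was not tested.

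CNN1, CNN2 and CNN3 encode calponins, which bind actin filaments and dampen myosin activity. Calponin 1, the smooth muscle form, was not detected: its probe (ILMN_1810054, gene at chr19:11538851-11550323) was above the noise limit on 0 of 11 arrays, with group means of 7.29 to 7.32. Calponin 2, the form found in many cell types, was well above it. On its brighter probe (ILMN_1770290, gene at chr19:1026608-1039065) CNN2 read 10.63, 10.69 and 10.41 in 48 h controls and 10.89, 10.84 and 10.85 under MASTL siRNA. The 3 MASTL siRNA arrays lay close together above all the controls. The change was 0.28 (SE 0.074, 95% confidence interval 0.11 to 0.45), or 1.21-fold, the smallest unadjusted p of the tested member probes at 48 h (0.0047), with a limma adjusted p of 0.107. Within pairs the adjusted p was 0.0291, and it was 0.112 without replicate 1, 0.0384 without replicate 3 and 0.06 without replicate 4. At 24 h the controls read 10.74, 10.54 and 10.72 and the MASTL siRNA arrays 10.79 and 10.83, again without overlap, a change of 0.14 (SE 0.083, adjusted p = 0.716). Within pairs, which leave out control replicate 2, the 24 h change was 0.079 (adjusted p = 0.689). The dimmer CNN2 probe (ILMN_1708486) had the same sign at 48 h, with 7.77, 7.81 and 7.86 in controls and 7.98, 7.98 and 7.90 under MASTL siRNA, a change of 0.14 (SE 0.059, adjusted p = 0.327) with no overlap.

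CALD1 encodes caldesmon, which links actin and myosin and restrains the motor, and lies at chr7:134711499-134970729. Its 3 probes, annotated to different transcripts, had estimates that disagreed in sign. The brightest (ILMN_1730487) read 10.02, 9.89 and 9.56 in 48 h controls and 10.28, 10.07 and 9.83 under MASTL siRNA. Each MASTL siRNA array was above the control of the same number although the groups overlapped, with pair differences of 0.262, 0.183 and 0.262. The change of 0.24 had an adjusted p of 0.516 between groups (limma, SE 0.14) and of 0.0226 within pairs (SE 0.043), and the latter was 0.115, 0.0761 or 0.11 without replicate 1, 3 or 4. Leaving out single arrays moved the unpaired 48 h change from 0.11 (without control replicate 4) to 0.35 (without MASTL siRNA replicate 4). At 24 h it was 0.15 (adjusted p = 0.878). Probe ILMN_2324002 differed by -0.085 at 24 h and -0.061 at 48 h (limma adjusted p = 0.942 and 0.918). Probe ILMN_1717990 differed by 0.02 and 0.054 (0.962 and 0.686).

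THBS1 encodes thrombospondin 1, a secreted matrix glycoprotein, and lies at chr15:39581079-39599466. In the fit without pairing it had the largest differences of the tested members at both times and, at 48 h, the largest spread between replicates. On its probe (ILMN_1686116) the 24 h controls read 10.51, 9.81 and 10.47 and the MASTL siRNA arrays 10.82 and 10.95, without overlap. This is 1.54-fold, or 0.63 on the log2 scale (SE 0.34, limma adjusted p = 0.683), and it was 0.40 without control replicate 2, below the 0.47 of SRF in that fit. At 48 h the controls read 9.28, 9.25 and 10.04 and the MASTL siRNA arrays 9.55, 10.08 and 10.55. These groups overlapped, since control replicate 4 was above MASTL siRNA replicate 1. The change was 0.54, or 1.45-fold (SE 0.31, 95% confidence interval -0.16 to 1.23, adjusted p = 0.511), and within pairs, which differed by 0.272, 0.83 and 0.51, the adjusted p was 0.0252 with SE 0.1. It was 0.0276 without replicate 1, 0.0588 without replicate 3 and 0.103 without replicate 4. The unpaired 48 h change was 0.29 without MASTL siRNA replicate 4 and 0.80 without control replicate 4.

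**Figure D2:**
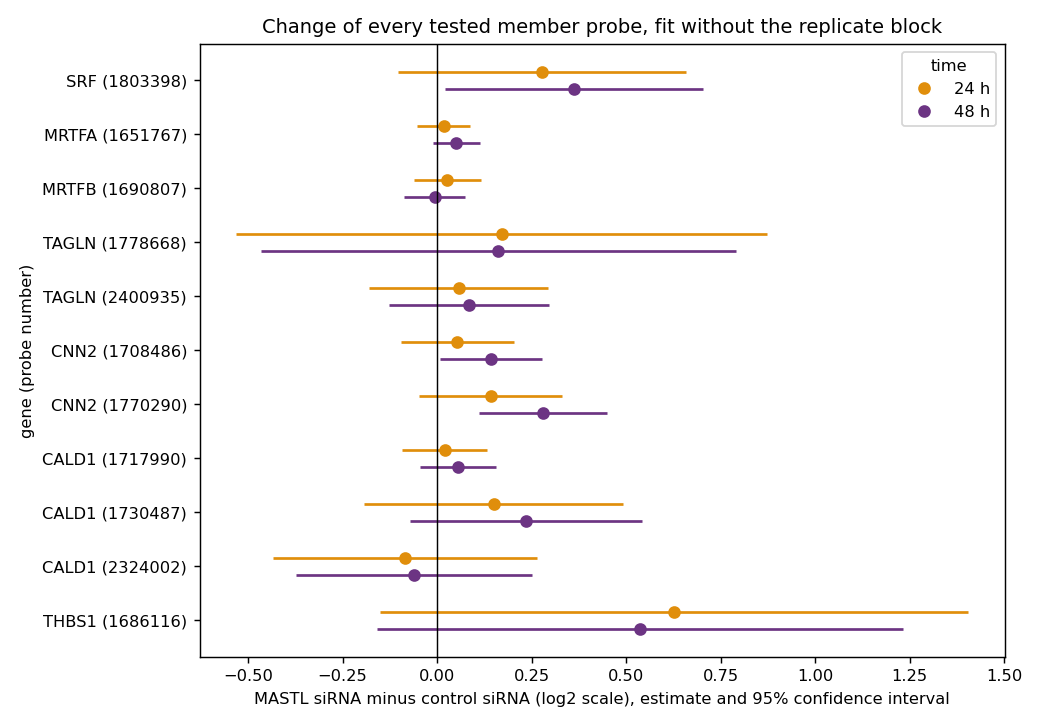
Log2 change under MASTL siRNA against control siRNA for the 11 tested member probes (vertical axis, gene and probe number) at 24 h (orange) and 48 h (purple), as the estimate (point) and its 95% confidence interval (bar) from the fit without pairing. The 48 h intervals of SRF and both CNN2 probes lie above 0, from 0.021, 0.0071 and 0.11 upward, before any adjustment for the number of probes tested.

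The direction was compared over arrays. At 24 h every MASTL siRNA array exceeded every control array for 2 of 11 member probes (CNN2 and THBS1), against 13.2% of all tested probes, and at 48 h for 4 (SRF, MRTFA and both CNN2 probes), against 10.1%. The reverse held for 0 member probes at either time, against 12% and 8.67% of all. Over same-numbered arrays, 8 of 11 member probes were higher in all 3 pairs at 48 h, where 23.1% of all probes were, and 5 of 11 were higher in both pairs at 24 h, where 30.2% were. None was lower in every pair at either time, against 28% and 21.1% of all probes. As the members were chosen with earlier results of these data known, these counts too are a description only.

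**Figure D3:**
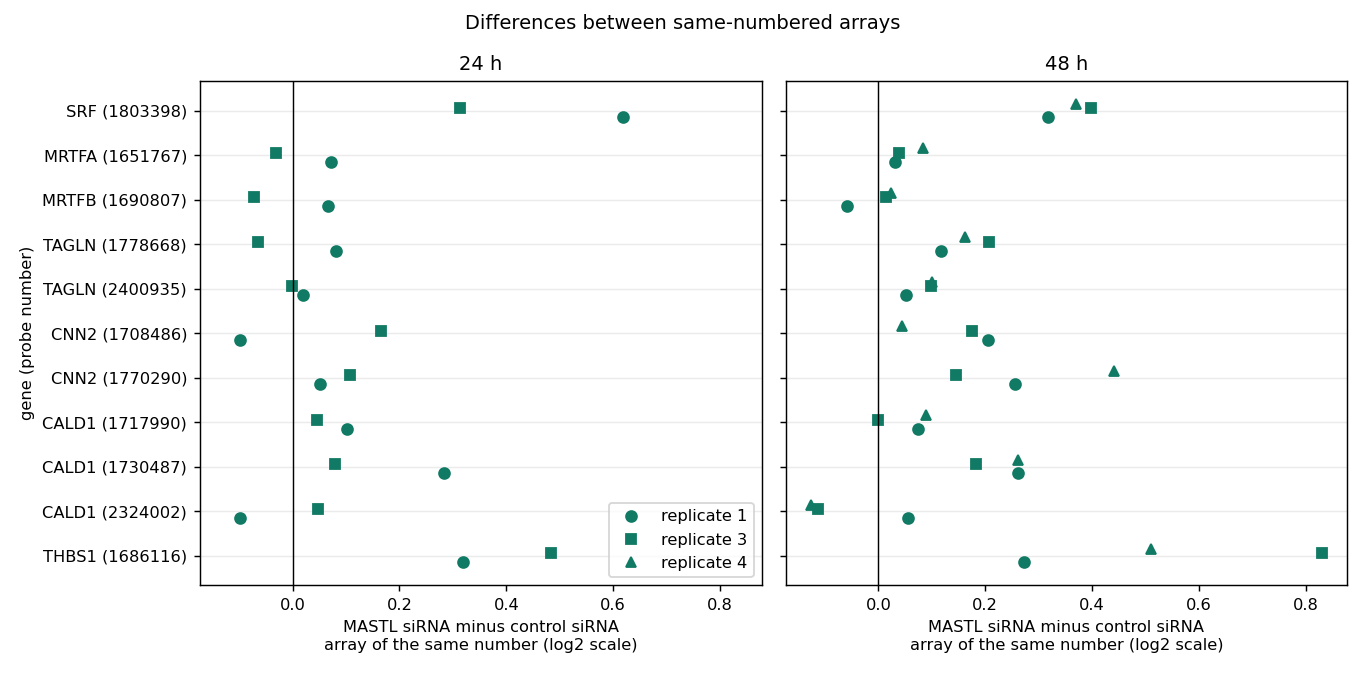
Log2 value of the MASTL siRNA array minus that of the control array with the same replicate number (horizontal axis) for each tested member probe (vertical axis), at 24 h (left) and 48 h (right). At 48 h all 3 points lie right of 0 for SRF, MRTFA, CNN2, THBS1, both TAGLN probes and 1 CALD1 probe, with SRF between 0.318 and 0.398 and THBS1 between 0.272 and 0.83.

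Averaged over both times, limma called 0 of 11 member probes, against 4.63% of all, and 3 had an unadjusted p under 0.05 (SRF, CNN2 and THBS1), against 16.7%. The average change was 0.32 for SRF (adjusted p = 0.182), 0.21 for CNN2 (0.076) and 0.58 for THBS1 (0.237). Single arrays of the 24 h groups moved this count. Without 24 h control replicate 2 the SRF average was 0.41 (adjusted p = 0.0125), and without 24 h MASTL siRNA replicate 1 the average of the dimmer CNN2 probe was 0.16 (0.0328), 1 member probe called in each case. Within pairs 3 passed on average (SRF, CALD1 and THBS1), against 12.9% of all. A block over all arrays gave 4 on average, against 9.91%, and 4 at 48 h, against 8.2%. Whether the change at 48 h differed from that at 24 h was tested directly, and limma called 0 of 11 member probes and 0% of all, with 0 member probes at an unadjusted p under 0.05 and 3% of all.

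Time itself was compared within each siRNA. Limma called 0 of 11 member probes for 48 h against 24 h under control siRNA (0% of all) and 0 under MASTL siRNA (0.00366%), and at an unadjusted p under 0.05 it was 1 member probe in each, THBS1, against 9.78% and 9.44% of all. The THBS1 difference was -0.74 on the log2 scale under control siRNA (SE 0.31, adjusted p = 0.489) and -0.83 under MASTL siRNA (SE 0.34, adjusted p = 0.504). The 24 h and 48 h levels of THBS1 overlapped in control arrays and did not in MASTL siRNA arrays, a rule whose share over all probes was not counted. The difference between these steps in time was -0.089 (SE 0.46, limma unadjusted p = 0.851). With the replicate number as a block over all arrays, 5 member probes passed in time under control siRNA, against 11.2% of all, and 4 under MASTL siRNA, against 7.16%, although the numbers did not pair arrays across times.

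Other genes of the pathway were read from lists of known regulators and targets. None of the 3 ELK cofactors passed at either time. Of 18 tested regulators of MRTF localisation, from RHOA and the DIAPH formins to profilin and the thymosins, 0 passed at 24 h and 1 at 48 h, with median changes of 0.015 and 0.0068. Over all probes 0.905% and 2.34% passed. The regulator was MICAL2, an oxidase that depolymerises nuclear actin, which read 8.35, 8.32 and 8.40 in 48 h controls and 8.52, 8.53 and 8.54 under MASTL siRNA (log2 change 0.17, SE 0.03, limma adjusted p = 0.0225). The groups did not overlap, but the call was lost without any 1 of the MASTL siRNA arrays or of control replicates 1 and 3 at 48 h (adjusted p 0.0637 to 0.0877), in a fit of the 48 h groups alone (0.0528) and with a prior spread that follows intensity (0.193). Within pairs at 48 h MICAL2 passed (0.0108), and TMSB10, a thymosin that binds monomeric actin, passed as lower (-0.17, 0.0151, against 0.431 without pairing), 2 of 18 where 11.6% of all probes passed.

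Of 27 other tested contractile and cytoskeletal targets, 2 rose and 2 fell at 24 h, and 3 rose and 2 fell at 48 h, with median changes of 0.053 and 0.16, where 0.905% and 2.34% of all probes passed in either direction. The calponin CNN3 rose at both times, on its only probe. It read 11.57, 11.65 and 11.66 in 24 h controls against 11.90 and 12.06 under MASTL siRNA, a change of 0.36 (SE 0.053, adjusted p = 0.0179). At 48 h it read 11.38, 11.37 and 11.30 against 11.82, 11.85 and 11.76, a change of 0.46 (SE 0.047, adjusted p = 0.0022), and the groups were apart at both times. FHL2, a LIM-domain cofactor known to bind SRF, rose by 0.3 at 24 h and 0.34 at 48 h (adjusted p = 0.00761 and 0.00177), and its other tested probe differed by 0.27 and 0.44 (0.163 and 0.00854). Without 24 h MASTL siRNA replicate 3 the 24 h changes of CNN3 (0.28, adjusted p = 0.134) and FHL2 (0.27, adjusted p = 0.0892) no longer passed, nor did that of CNN3 without 24 h control replicate 1 (0.33, adjusted p = 0.0696). With a prior spread that follows intensity, FHL2 passed at neither time (adjusted p = 0.395 and 0.1) and CNN3 at 48 h only (0.247 at 24 h). In a fit of the 24 h groups alone the 24 h calls of CNN3 (0.173) and FHL2 (0.0895) were lost.

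ACTG2, the smooth muscle gamma-actin gene, rose at 48 h from 11.41, 11.52 and 11.65 to 12.38, 12.24 and 12.41, a change of 0.82 (SE 0.09, limma adjusted p = 0.00299). Actin genes are near-identical in their coding parts, and whether this probe reads other actins was not tested. The genes that fell were TPM4, which encodes a tropomyosin, and VCL, which encodes the adhesion protein vinculin. TPM4 changed by -1.26 at 24 h and -1.04 at 48 h (adjusted p = 0.000672 and 0.000561), with its other probe at -1.03 and -0.83, also called. VCL changed by -0.96 and -1.01 (adjusted p = 0.0179 and 0.00515), its second probe by -0.56 and -0.51 (0.00263 and 0.00164), and its last, above the noise limit on 2 arrays, by -0.003 and -0.0079. The 24 h call of the first VCL probe was lost without either MASTL siRNA array or without control replicate 1 or 2 (adjusted p 0.0589 to 0.179), and in a fit of the 24 h groups alone (0.0515). Within pairs, 8 of the 27 passed as higher and 3 as lower at 48 h, where 5.94% of all probes passed as higher and 11.6% in either direction. Those higher included the matricellular genes CCN1 (0.57, adjusted p = 0.00126) and CCN2 (0.55, 0.00355) and the myosin light chain MYL9 (0.23, 0.00869). Without pairing these 3 did not pass (limma adjusted p = 0.422, 0.149 and 0.0842). Those lower were TPM4, VCL and the integrin gene ITGA5 (-0.33, adjusted p = 0.0182, against 0.735 without pairing). In the paired fit without any 1 of the 48 h pairs CCN1 and CCN2 still passed (adjusted p up to 0.0132 and 0.0302), and MYL9 did not without replicate 3 (0.0592).

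The immediate early targets are genes known to respond within minutes to mitogens. Of 11 tested, among them FOS, FOSB, FOSL1, EGR1 and JUNB, 0 passed at either time, where 0.905% and 2.34% of all probes passed. The change was above 0 for 1 at 24 h and 2 at 48 h, against 52% and 51.2% of all probes. The medians were -0.15 and -0.093. FOS (mean 7.51) and EGR3 (7.41) read near the noise limit. EGR1 lay above 0 at both times (0.058 and 0.063) and EGR3 at 48 h (0.011). Within pairs, 2 passed as lower at 48 h, MCL1 (-0.38, adjusted p = 0.0131) and IER3 (-0.17, adjusted p = 0.0275), and 0 as higher, where 11.6% of all probes passed. MCL1 no longer passed without replicate 3 or 4 (0.0804 and 0.0728), nor IER3 without replicate 1 or 4 (0.108 and 0.113). At 24 h, where pairing is not shown, 1 passed as lower within pairs (IER3, -0.28, adjusted p = 0.0258), where 2.84% of all probes passed. In that fit 3 of the 11 changes at 24 h lay above 0, and the median was -0.072. These counts describe the lists, which share arrays and regulation and were chosen with earlier results of these data known. No difference between lists was tested.

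**Figure D4:**
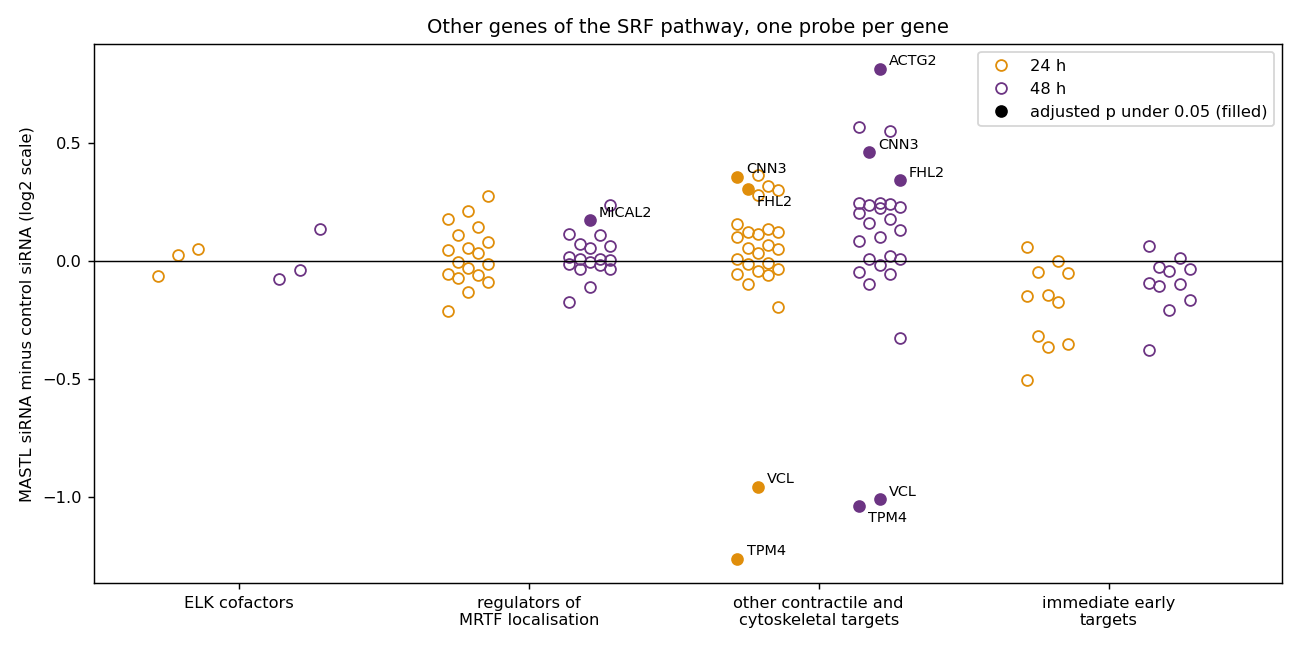
Log2 change under MASTL siRNA against control siRNA (vertical axis) of the other tested genes of the pathway, 1 probe per gene, in 4 lists (horizontal axis) at 24 h (orange) and 48 h (purple), filled and named where the limma adjusted p was under 0.05. TPM4 and VCL lie near -1 at both times, ACTG2, CNN3 and FHL2 lie above 0, and 9 of 11 immediate early genes lie below 0 at 48 h.

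The tested named genes whose pattern over the 11 arrays was most like that of SRF were BCOR (Pearson r 0.911, Spearman rho 0.9), ELL (0.905 and 0.8) and CXXC1 (0.904 and 0.909). For CNN2, the member with the smallest p averaged over both times, they were F3 (0.955 and 0.836), UQCC1 (0.929 and 0.827) and CCNYL1 (0.92 and 0.854). The arrays share groups and 1 normalization, and these values are a description of likeness over them.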

How the data were processed

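The values analysed were those the authors deposited as normalized, for 47321 probes and 11 arrays. They were read as log2 from their range, 7.24 to 14.5. The submitters' processing notes name lumi without a version. The arrays had been normalized to 1 distribution, since sorted values differed from those of the first array by at most 0.000698. The exact transform (log2 or a variance-stabilizing one) is not given in the sources used here, and the deposited log2 values understate folds near the floor. A second table of non-normalized signals and detection p-values, 22 per-sample columns, was not used, because its column names match no label.

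The noise limit of 7.409 was the 95th percentile of the values below the most common value (7.36) mirrored about it, and 27303 probes above it on at least 2 arrays were tested. The 4 group means were estimated in a single limma 3.58.1 fit (lmFit, eBayes; R 4.3.3; 7 residual degrees of freedom, 1.71 added by moderation), and p-values are two-sided with Benjamini-Hochberg adjustment over all tested probes. Only the fit without pairing was tested on simulated data, in which the noise was independent between arrays. The paired fit was not tested in this way. Replicate numbers were taken to pair the 48 h arrays, since deviations from the group means correlated at 0.689, 0.535 and 0.768 in the values, and not because a label says so. Arrays of different numbers were not correlated. At 24 h 2 pairs (0.095 and 0.458) are too few, and across times the correlations were -0.201 to 0.114. The paired fit has a term for each number within each time and a single spread per probe for both times.

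Alternatives were other filters, 1 probe per gene, cyclic loess, both blocks, fits on the compared groups, an intensity trend, array weights and leaving out each array. Named were all members, MASTL, up to 6 called genes per list, and the 3 genes most like SRF and the leading member. CCN1, CCN2, MYL9, ITGA5, MCL1, IER3, EGR1, EGR3, TMSB10, CD68 and PECAM1 were named after their values were seen. The members and lists were chosen with earlier results of these data known. Gene names came from the platform annotation, in which 30113 probes had 1 symbol, 8 several and 17200 none. Promoters came from RefSeq. Python 3.11.15 with matplotlib 3.10.9 drew the figures.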

Additional observations from a re-analysis of the deposited data

How the results depend on the processing

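The count of member probes called stayed at 0 at 24 h, at 48 h and on average under no filter, the stricter filter, 1 probe per gene, cyclic loess, the intensity trend and array weights. The replicate block within time gave 1 at 24 h, 5 at 48 h and 3 on average, and the replicate block over all arrays gave 4 at 48 h, 4 on average, 5 for 48 h against 24 h under control siRNA and 4 under MASTL siRNA, although numbers did not pair arrays across times. The 48 h groups alone gave 1. Leaving out 1 array gave 0 to 1 on average and 0 otherwise. With pairs left out, the paired counts ranged from 0 to 1 at 24 h and 0 to 5 at 48 h, an alternative chosen after seeing the data. Signs turned only for changes uncalled in the fit without pairing, of which that of TAGLN probe ILMN_1778668 at 48 h was called within pairs. The replicate block, in both forms, gave MRTFB -0.0031 at 24 h and -0.0048 on average. Leaving out 1 array gave MRTFA -0.034 to 0.069 at 24 h. It gave MRTFB -0.0031 to 0.064 at 24 h, -0.019 to 0.011 at 48 h (0.0019 without MASTL siRNA replicate 1) and -0.0048 to 0.029 on average (-0.0028 without 24 h MASTL siRNA replicate 1). The TAGLN probes ranged from -0.086 to 0.41 and from -0.0039 to 0.16 at 48 h, the low ends without MASTL siRNA replicate 4. The dimmer CNN2 probe ranged from -0.074 (without MASTL siRNA replicate 3) to 0.18 at 24 h. CALD1 probe ILMN_1717990 ranged from -0.011 to 0.074 at 24 h, with -0.0047 and -0.0082 without control replicates 1 and 3. CALD1 probe ILMN_2324002 ranged from -0.17 to 0.085 at 48 h (0.0054 without control replicate 3) and from -0.13 to 7.46e-05 on average. The cause was not tested. For MASTL, the 24 h call of the dimmer probe was lost in a fit of the 24 h groups alone (adjusted p = 0.165) and without MASTL siRNA replicate 1 (-0.56) or 3 (-0.68). Under the intensity trend MICAL2 at 48 h (adjusted p = 0.193), FHL2 at 24 h and 48 h (0.395 and 0.1) and CNN3 at 24 h (0.247) kept their sign without passing. Background correction of the non-normalized signals was not run, because their columns could not be tied to samples. Signals near the noise limit (both MRTF genes, the dimmer tested TAGLN probe and CALD1 probe ILMN_1717990) bound what small changes could be seen.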
